A study of Mus musculus with 26 samples.

Results

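The genes described here are 37 mouse imprinted genes of 16 clusters or single loci, chosen by a list of symbols and followed through gene counts and chromatin loops of E14, a line of embryonic stem cells (ESCs). All 37 had a row among the 52535 gene rows of the count files and a position in the RefSeq annotation of GRCm38.p6, the assembly that mm10 denotes. The KO-labelled group was labelled as E14 with a Klf4 knockout and the WT-labelled group as E14 of wild type. Klf4 is a zinc-finger transcription factor of the pluripotency network. Both groups came from ESCs kept on gelatin in serum with LIF, the MEK inhibitor PD0325901 and the GSK3 inhibitor CHIR99021, and both were labelled as neural progenitor cells (NPCs) on day 12 of neural induction. RNA-seq and RNA polymerase II HiChIP, which recovers pairs of DNA sites held together with polymerase II, had 2 biological replicates per genotype. The HiChIP replicates were pooled into 1 loop list per genotype. The sources used here do not give the knockout allele, the number of clones behind it or the induction protocol.

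Genomic imprinting restricts expression of a gene to the copy inherited from one parent. Clusters are governed by differentially methylated control regions, whose methylation is set in the germ line and kept through early development by KRAB zinc-finger proteins such as ZFP57, with TRIM28 and the maintenance methyltransferase DNMT1. Many paternally expressed genes promote growth and many maternally expressed ones restrain it, and cultured ESCs are known to vary in their imprints. The counts hold no allele information, so a level here is the sum over both parental copies.

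Klf4 went against the labels in RNA. Its counts were 2571 and 2538 in the KO-labelled libraries and 0 and 0 in the WT-labelled libraries, a rise of at least 752-fold under the KO label over a floor of 3 counts per library. The loop lists differed in the other direction at Klf4, with 4 kept tags in the KO-labelled list and 32 in the WT-labelled list, a tag being a read pair that joins the anchors of a loop. Libraries and lists are therefore called by their label, and whether RNA and loops under one label stand for the same genotype was not tested.

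Gene counts totalled 31909094 and 33347088 in the KO-labelled libraries, against 37703866 and 29835774 in the WT-labelled libraries. Levels are counts per 1000000 (CPM) on TMM-scaled library sizes, a fold change is KO-labelled over WT-labelled on the log2 scale with its standard error (SE), and a gene is called where the adjusted p is below 0.05 in edgeR's quasi-likelihood test with Benjamini-Hochberg adjustment over all 17273 genes tested. Expression differed over much of the transcriptome: 37.2% of genes tested were called higher and 35.8% lower, and 22.3% were called higher and 11.4% lower by at least 2-fold. With library size alone as the scaling, 62.0% of called genes were higher, against 50.9% with TMM. The NPC label met a mixed marker picture, since pluripotency markers were read in all libraries at summed levels of 4421 and 4508 CPM in KO-labelled libraries and 8603 and 8621 CPM in WT-labelled libraries, far above the neural progenitor markers at 164 and 172 CPM in KO-labelled libraries and 94.2 and 92.7 CPM in WT-labelled libraries. In bulk RNA, fewer cells of a type and less RNA per cell cannot be told apart.

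Of the 37 imprinted genes, 36 passed the filter on low counts. Dlk1, a paternally expressed membrane ligand related to Notch ligands, had 0 counts in every library. Of the 36 tested, 23 were called higher and 7 lower in KO-labelled libraries, beside the 37.2% and 35.8% of all genes given above. By at least 2-fold, 15 were higher and 6 lower, beside 22.3% and 11.4% of all genes. The median fold change was 0.52 on the log2 scale over the imprinted genes tested and 0.03 over all genes tested. Summed over the imprinted genes, the level was 3582 and 3501 CPM in KO-labelled libraries and 978 and 966 CPM in WT-labelled libraries. Peg10, Peg3, H19 and Igf2 made up 2357 and 2309 CPM of it in KO-labelled libraries and 120 and 117 CPM in WT-labelled libraries. The other 33 genes added 1225 and 1192 CPM in KO-labelled libraries and 858 and 849 CPM in WT-labelled libraries.

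**Figure D1:**
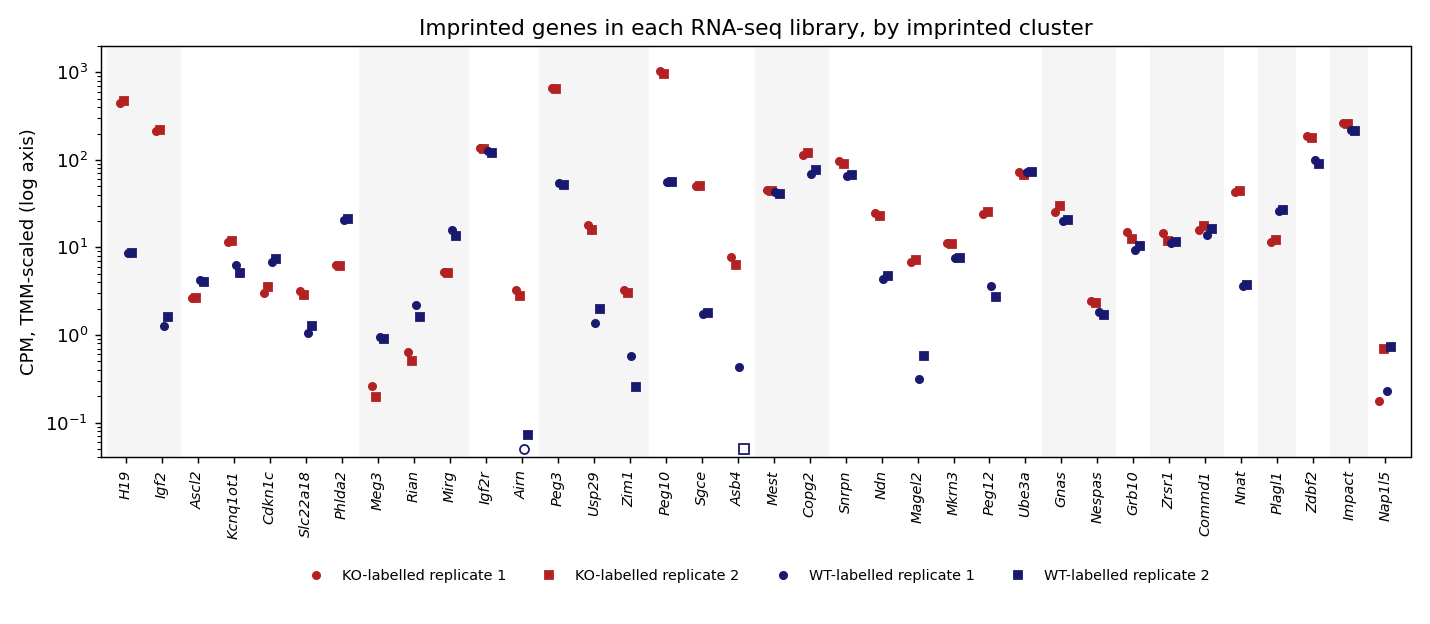
Level of each tested imprinted gene in each library, as TMM-scaled CPM on a log axis, with genes grouped by cluster in shaded blocks; open symbols at the bottom stand for 0 counts. KO-labelled libraries lie above the WT-labelled ones by an order of magnitude or more for H19, Igf2, Peg3, Peg10 and Sgce, and below them for the Dlk1-Meg3 cluster, Phlda2 and Plagl1.

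H19 and Igf2 share a control region on chromosome 7 and had the largest rises among imprinted genes at over 5 CPM. H19 (chr7:142575530-142578146), a maternally expressed long noncoding RNA, had 449 and 472 CPM in KO-labelled libraries and 8.69 and 8.67 CPM in WT-labelled libraries. Igf2 (chr7:142650768-142666816), the paternally expressed insulin-like growth factor 2, had 216 and 222 CPM in KO-labelled libraries and 1.25 and 1.59 CPM in WT-labelled libraries. Both KO-labelled libraries were high and both WT-labelled libraries low for each gene. The fold change was 5.73 ± 0.05 (SE) for H19 and 7.28 ± 0.08 (SE) for Igf2 on the log2 scale, with edgeR adjusted p-values of 1.76e-30 and 1.29e-28. The annotated genes lie 72.6 kb apart. They are expressed from opposite parental copies, and both were higher together. The antisense transcript Igf2os, whose reads cannot be told apart from those of Igf2 without a known strand setting, had 240 and 200 counts in KO-labelled libraries and 12 and 6 counts in WT-labelled libraries.

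H19 is the precursor of miR-675. The mature arms, from RefSeq (GRCm38.p6, chr7:142577112-142577133 and chr7:142577078-142577099, minus strand), are shown with the seed, bases 2 to 8, in capitals. The separate row of the miRNA gene Mir675 had 0 counts in all 4 libraries. Mir675 lies within the annotated H19, so reads over both may have been left out as ambiguous, and the 0 does not measure it. The libraries did not measure mature miRNAs, so the values above are those of the host transcript.
mmu-miR-675-5p: uGGUGCGGaaagggcccacagu
mmu-miR-675-3p: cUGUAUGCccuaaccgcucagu

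All 3 members of the Peg3 cluster, also on chromosome 7, were called higher, beside 37.2% of all genes tested. Peg3 (chr7:6703892-6730462), a paternally expressed zinc-finger protein with roles in growth and maternal behaviour, had 665 and 651 CPM in KO-labelled libraries and 54.1 and 51.1 CPM in WT-labelled libraries. Usp29 (chr7:6730559-6967220), a paternally expressed ubiquitin protease gene, had 18.1 and 15.8 CPM in KO-labelled libraries and 1.37 and 1.99 CPM in WT-labelled libraries. Both genes were plainly higher in both KO-labelled libraries, with fold changes of 3.64 ± 0.03 (SE) for Peg3 and 3.36 ± 0.18 (SE) for Usp29 on the log2 scale (edgeR adjusted p = 1.67e-29 and 1.70e-14). Zim1, a maternally expressed zinc-finger gene of the cluster, was low throughout but also called higher, with a fold change of 2.88 ± 0.41 (SE) and an edgeR adjusted p of 8.53e-07.

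Peg3 and Usp29 start head to head, with 96 bases between their annotated ends. This stretch, which each list's loop anchors at the pair also covered, is printed from the RefSeq promoter table (GRCm38.p6, chr7:6730463-6730558, plus strand), with its 3 CG dinucleotides, the target of imprint methylation, in capitals.
Peg3-Usp29: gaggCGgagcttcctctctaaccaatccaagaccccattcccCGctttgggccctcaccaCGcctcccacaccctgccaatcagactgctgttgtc

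The Peg10-Sgce cluster on chromosome 6 held the imprinted gene with the highest CPM in KO-labelled libraries, while Impact was the highest in WT-labelled libraries. Peg10 (chr6:4747306-4760517), a paternally expressed gene derived from a retrotransposon and needed for the placenta, had 1027 and 964 CPM in KO-labelled libraries and 56.4 and 56.0 CPM in WT-labelled libraries. Sgce (chr6:4674350-4747204), which encodes the paternally expressed epsilon-sarcoglycan, had 50.5 and 49.9 CPM in KO-labelled libraries and 1.74 and 1.77 CPM in WT-labelled libraries. Asb4 (chr6:5383386-5433022), a maternally expressed ankyrin-repeat protein, had 7.78 and 6.35 CPM in KO-labelled libraries and 0.427 and 0 CPM in WT-labelled libraries. All 3 were high in both KO-labelled libraries and low in both WT-labelled ones. The fold changes were 4.15 ± 0.04 (SE) for Peg10, 4.84 ± 0.12 (SE) for Sgce and 4.89 ± 0.54 (SE) for Asb4 on the log2 scale (edgeR adjusted p = 5.34e-30, 1.79e-21 and 6.21e-06). Peg10 and Sgce are divergent neighbours with 101 bases between their annotated ends.

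Genes further along the same chromosome 6 domain were also higher. Ppp1r9a, which encodes neurabin and is imprinted in some mouse tissues, had 128 and 121 CPM in KO-labelled libraries and 28.5 and 30.7 CPM in WT-labelled libraries, a fold change of 2.07 ± 0.06 (SE) with an edgeR adjusted p below the threshold. Pon2, Pon3, Casd1 and Calcr of the domain were likewise called higher, with log2 fold changes of 3.36, 1.33, 0.73 and 3.49.

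In the Snrpn-Ube3a domain of chromosome 7, the mouse counterpart of the Prader-Willi and Angelman region, 5 of 6 members were called higher. Over all genes tested, 37.2% were called higher. The sizes of the changes differed along the domain. Ndn (chr7:62348277-62349928), the gene of necdin, had 25.0 and 23.0 CPM in KO-labelled libraries and 4.36 and 4.69 CPM in WT-labelled libraries. Peg12 (chr7:62461871-62464510) had 24.2 and 25.3 CPM in KO-labelled libraries and 3.59 and 2.74 CPM in WT-labelled libraries. Magel2 (chr7:62376979-62381640), a regulator of ubiquitin ligases, had 6.85 and 7.22 CPM in KO-labelled libraries and 0.313 and 0.578 CPM in WT-labelled libraries. These 3 paternally expressed genes lie together at one end of the domain. Their fold changes were 2.41 ± 0.13 (SE) for Ndn, 2.95 ± 0.14 (SE) for Peg12 and 4.01 ± 0.31 (SE) for Magel2 on the log2 scale (edgeR adjusted p = 1.06e-14, 1.17e-15 and 1.68e-11).

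Mkrn3 lies between Magel2 and Peg12 and had a fold change of 0.55 ± 0.14 (SE), with an edgeR adjusted p of 0.00120. Snrpn (chr7:59982495-60450177), the gene of a splicing protein and the member of the domain with the highest CPM in KO-labelled libraries, had 97.6 and 89.0 CPM in KO-labelled libraries and 65.9 and 67.6 CPM in WT-labelled libraries, a fold change of 0.48 ± 0.05 (SE) with an edgeR adjusted p of 1.25e-08. Ube3a, the ubiquitin ligase expressed from the maternal copy in neurons, had 72.6 and 66.6 CPM in KO-labelled libraries and 73.0 and 72.3 CPM in WT-labelled libraries. Its fold change of -0.06 ± 0.06 (SE) was not called (edgeR adjusted p = 0.320), and with library size alone it was 0.15 and called. Snhg14, the long transcript that runs antisense through Ube3a, was called higher with 168 and 165 CPM in KO-labelled libraries and 55.8 and 51.2 CPM in WT-labelled libraries. The annotated Snhg14 overlaps both Snrpn and Ube3a, and reads of the overlaps cannot be told apart without a known strand setting. Atp10a, beside Ube3a, had 36.9 and 36.2 CPM in KO-labelled libraries and 1.31 and 0.325 CPM in WT-labelled libraries, a fold change of 5.39 ± 0.29 (SE).

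The upstream sequences of the 3 genes with the larger changes are shown because these genes moved together without a kept loop at any of them. The 120 bases before the RefSeq start are printed 5′ to 3′ on the strand of the gene, with CG dinucleotides in capitals, at chr7:62348157-62348276 (plus) for Ndn, chr7:62376859-62376978 (plus) for Magel2 and chr7:62464511-62464630 (minus) for Peg12. They hold 4, 6 and 5 CG dinucleotides.
Ndn: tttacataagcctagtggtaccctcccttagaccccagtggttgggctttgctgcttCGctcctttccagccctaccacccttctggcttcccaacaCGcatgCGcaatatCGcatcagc
Magel2: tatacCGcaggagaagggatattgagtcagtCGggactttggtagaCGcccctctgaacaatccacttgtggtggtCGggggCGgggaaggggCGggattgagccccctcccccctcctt
Peg12: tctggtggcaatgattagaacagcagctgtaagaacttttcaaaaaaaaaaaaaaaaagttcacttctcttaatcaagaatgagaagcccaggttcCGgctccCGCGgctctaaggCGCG

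Nnat, Zdbf2 and Plagl1 are paternally expressed at loci of their own. Nnat (chr2:157560078-157562525), the gene of the membrane protein neuronatin, had 43.1 and 44.6 CPM in KO-labelled libraries and 3.67 and 3.68 CPM in WT-labelled libraries. Its fold change was 3.57 ± 0.11 (SE) on the log2 scale, with an edgeR adjusted p of 1.46e-19. Blcap, the gene that Nnat lies within, went the other way, at 27.5 and 27.3 CPM in KO-labelled libraries and 37.2 and 39.1 CPM in WT-labelled libraries. Zdbf2 (chr1:63200358-63314576), which has a role in body growth, had 185 and 177 CPM in KO-labelled libraries and 98.4 and 90.8 CPM in WT-labelled libraries, a fold change of 0.93 ± 0.04 (SE) with an edgeR adjusted p of 6.24e-16. Plagl1 (chr10:13090832-13131694), a zinc-finger regulator that inhibits proliferation, had 11.4 and 12.3 CPM in KO-labelled libraries and 26.1 and 26.7 CPM in WT-labelled libraries. It was the only paternally expressed member called lower, with a fold change of -1.15 ± 0.10 (SE) and an edgeR adjusted p of 3.27e-10.

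Upstream sequences of these 3 genes are printed because loops at each are described further on. For Nnat, the 250 bases before the start (chr2:157559828-157560077, plus strand) have their 12 CG dinucleotides in capitals. For Zdbf2 (chr1:63200108-63200357, plus strand) and Plagl1 (chr10:13090582-13090831, plus strand), capitals mark the letters TGCCGC or the reverse complement GCGGCA, the core that ZFP57 is known to bind when methylated. The printed Zdbf2 window has 3 such matches among 13 CG dinucleotides and that of Plagl1 has 1 match among 19. The other RefSeq window of Zdbf2, which is not printed, has 0 matches.
Nnat: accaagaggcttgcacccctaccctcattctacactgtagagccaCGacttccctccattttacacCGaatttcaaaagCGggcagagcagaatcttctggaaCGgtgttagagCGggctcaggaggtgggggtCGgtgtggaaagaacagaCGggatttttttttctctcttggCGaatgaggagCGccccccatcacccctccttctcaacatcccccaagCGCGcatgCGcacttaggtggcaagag
Zdbf2: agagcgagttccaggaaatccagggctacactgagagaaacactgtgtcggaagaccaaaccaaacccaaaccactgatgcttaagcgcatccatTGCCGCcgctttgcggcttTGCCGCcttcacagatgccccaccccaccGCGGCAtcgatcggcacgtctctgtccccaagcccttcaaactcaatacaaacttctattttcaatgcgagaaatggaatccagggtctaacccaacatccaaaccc
Plagl1: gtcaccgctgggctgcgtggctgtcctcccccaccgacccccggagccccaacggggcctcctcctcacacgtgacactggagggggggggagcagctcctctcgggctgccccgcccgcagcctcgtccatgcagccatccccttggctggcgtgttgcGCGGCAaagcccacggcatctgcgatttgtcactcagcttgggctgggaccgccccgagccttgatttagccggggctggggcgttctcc

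Over the RefSeq table, 31 of the 37 genes matched, with 47 windows of 250 upstream bases. TGCCGC on either strand was found in 8 of the 47 windows, of Copg2, Meg3, Mest, Nap1l5, Plagl1, Zdbf2 and Zim1, and in 8.68% of the 32851 windows of all genes. GGGNGTGG, a form of the letters that KLF proteins are known to bind, searched on both strands, was found in 10 windows of 9 genes, among them Peg3, Usp29, Igf2, Gnas and Grb10, and in 15.9% of all windows. Some windows overlap, among them 2 of Mest and those of Peg3 and Usp29, so a match can be counted more than once. The shares were not compared by a test. The median window held 10 CG dinucleotides over the imprinted genes and 6 over all genes. H19, Peg10, Sgce, Cdkn1c, Nespas and Impact had no entry.

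In the Kcnq1 cluster on chromosome 7, 2 genes were called higher and 3 lower, beside 37.2% and 35.8% of all genes tested. Kcnq1ot1 (chr7:143213111-143296547), the paternally expressed noncoding RNA that silences its neighbours in cis, had 11.5 and 12.0 CPM in KO-labelled libraries and 6.27 and 5.13 CPM in WT-labelled libraries. Cdkn1c (chr7:143458339-143461059), the maternally expressed cell-cycle inhibitor p57, had 3.00 and 3.57 CPM in KO-labelled libraries and 6.78 and 7.33 CPM in WT-labelled libraries. Phlda2 (chr7:143501545-143503145), a maternally expressed restrainer of placental growth, had 6.33 and 6.10 CPM in KO-labelled libraries and 20.6 and 21.2 CPM in WT-labelled libraries. Kcnq1ot1 was thus higher, and Cdkn1c and Phlda2 lower, in both KO-labelled libraries. The fold changes were 1.03 ± 0.15 (SE) for Kcnq1ot1, -1.10 ± 0.20 (SE) for Cdkn1c and -1.75 ± 0.12 (SE) for Phlda2 on the log2 scale (edgeR adjusted p = 1.72e-06, 3.22e-05 and 3.20e-12).

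Not every maternally expressed gene of this cluster was lower. Slc22a18, a transporter gene 2.21 kb from Phlda2, had 3.15 and 2.90 CPM in KO-labelled libraries and 1.05 and 1.26 CPM in WT-labelled libraries, a fold change of 1.39 ± 0.33 (SE) with an edgeR adjusted p of 0.000519. Ascl2, a transcription factor of trophoblast, was called lower at -0.65 ± 0.25 (SE) with an edgeR adjusted p of 0.0224, and the call was lost without either KO-labelled replicate, without WT-labelled replicate 1, in DESeq2 and with library size alone (adjusted p between 0.0654 and 0.117). Kcnq1, which Kcnq1ot1 runs antisense to, had at most 2 counts in any library.

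The maternally expressed noncoding RNAs of the Dlk1-Meg3 cluster on chromosome 12 were all called lower, beside 35.8% of all genes tested. Mirg (chr12:109734981-109749458), a host transcript of microRNAs, had 5.30 and 5.04 CPM in KO-labelled libraries and 16.0 and 13.5 CPM in WT-labelled libraries, a fold change of -1.51 ± 0.15 (SE) with an edgeR adjusted p of 1.36e-09. Rian, a host of small nucleolar RNAs, had 0.641 and 0.502 CPM in KO-labelled libraries and 2.19 and 1.59 CPM in WT-labelled libraries. Meg3 had 0.262 and 0.195 CPM in KO-labelled libraries and 0.940 and 0.903 CPM in WT-labelled libraries. The paternally expressed Dlk1 and Rtl1 of the cluster were at 0 counts in every library. The annotated Rtl1 overlaps Meg3 and Rian, where reads may have been left out as ambiguous. The call of Meg3 (-2.00 ± 0.63 SE, edgeR adjusted p = 0.00664) was lost without KO-labelled replicate 2 or WT-labelled replicate 1, with adjusted p-values of 0.0715 and 0.0607.

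The Igf2r-Airn pair on chromosome 17 showed a large change in the noncoding RNA beside a small one in the receptor. Airn (chr17:12741311-12859884), the paternally expressed RNA that overlaps Igf2r and silences its paternal copy in differentiated cells, had 112 and 101 counts in KO-labelled libraries and 0 and 2 counts in WT-labelled libraries. Airn was called higher (edgeR adjusted p = 3.71e-09). The ratio of counts scaled by library was 95.3, with an exact interval of 26.1 to 792 that covers counting error only. Igf2r (chr17:12682406-12769706), the receptor that takes IGF2 to the lysosome, had 136 and 133 CPM in KO-labelled libraries and 127 and 120 CPM in WT-labelled libraries. Its fold change of 0.12 ± 0.04 (SE) was called with an edgeR adjusted p of 0.0117, and the call was lost without WT-labelled replicate 2 (0.07, adjusted p = 0.297). The annotated genes overlap over 28396 bases, where reads cannot be told apart without strand.

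At the remaining loci the changes were below 2-fold. Impact, a regulator of translation, had 264 and 255 CPM in KO-labelled libraries and 217 and 215 CPM in WT-labelled libraries, a fold change of 0.26 ± 0.03 (SE) with an edgeR adjusted p of 6.90e-08. Copg2, a coat protein gene beside Mest, had 113 and 119 CPM in KO-labelled libraries and 68.9 and 77.1 CPM in WT-labelled libraries, a fold change of 0.67 ± 0.05 (SE) with an edgeR adjusted p of 2.85e-11. Gnas, which encodes the stimulatory G protein alpha subunit from an isoform-dependent locus, had 25.7 and 29.9 CPM in KO-labelled libraries and 20.0 and 20.3 CPM in WT-labelled libraries, a fold change of 0.47 ± 0.10 (SE) with an edgeR adjusted p of 0.000126. These 3 were thus higher by a modest amount.

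Grb10, an adaptor that restrains insulin receptor signalling, had 15.1 and 12.3 CPM in KO-labelled libraries and 9.37 and 10.4 CPM in WT-labelled libraries, and its call (0.48 ± 0.13 SE, edgeR adjusted p = 0.00274) was lost without KO-labelled replicate 1 (0.32, adjusted p = 0.0998). The 6 members tested and not called were Mest, Ube3a, Nespas, Zrsr1, Commd1 and Nap1l5. Mest, a hydrolase-like protein often used as an imprinting marker, had 45.2 and 44.3 CPM in KO-labelled libraries and 42.6 and 40.6 CPM in WT-labelled libraries. Commd1, the most abundant gene at its locus, had 15.7 and 17.6 CPM in KO-labelled libraries and 13.96 and 16.0 CPM in WT-labelled libraries. Nap1l5 was near the limit of counting, at 0.175 and 0.697 CPM in KO-labelled libraries and 0.228 and 0.722 CPM in WT-labelled libraries. With library size alone as the scaling, Mest, Zrsr1 and Commd1 were called higher.

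**Figure D2:**
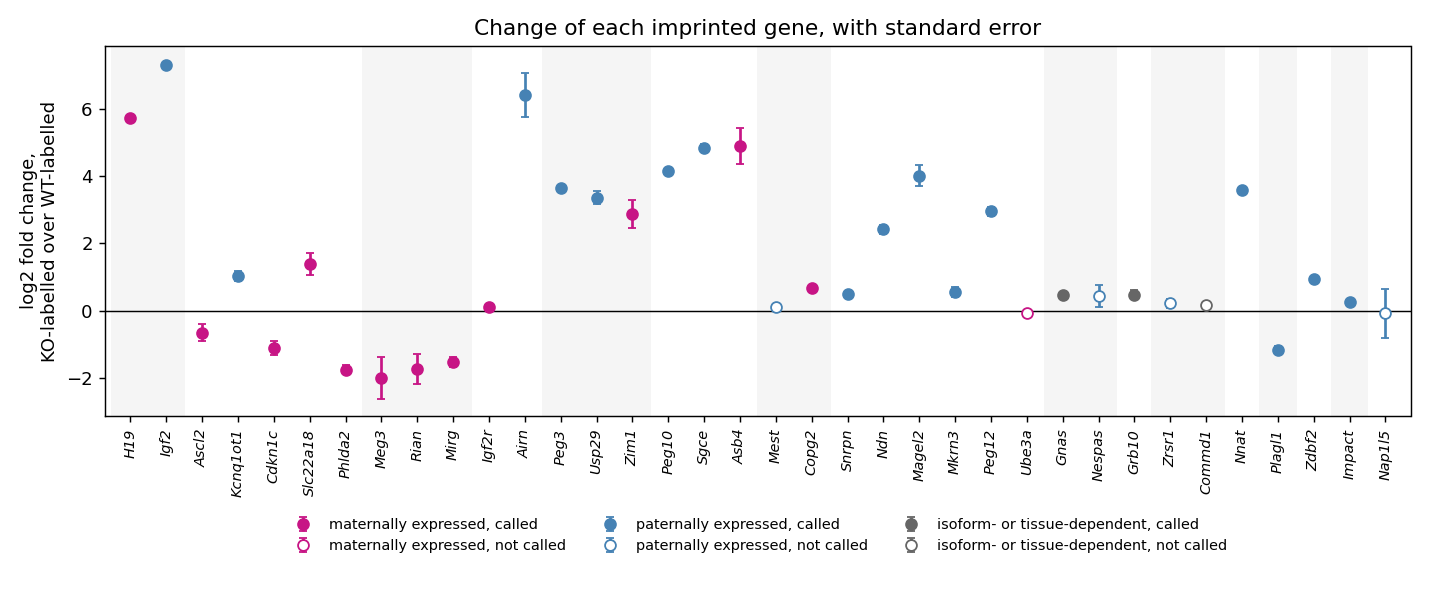
Log2 fold change of each tested imprinted gene, KO-labelled over WT-labelled, with its standard error; colours give the parental copy known to be expressed in mouse, and filled points passed the edgeR threshold. Values run from -2.00 for Meg3 to 7.28 for Igf2.

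Sorted by the parental copy that is known to be expressed in mouse, 15 of the 20 paternally expressed genes tested were called higher and 1 lower, with a median fold change of 1.72 on the log2 scale. Of the 13 maternally expressed genes tested, 6 were called higher and 6 lower, with a median of -0.06. Over all genes tested, 37.2% were called higher and 35.8% lower, with a median of 0.03. The maternally expressed genes that were higher were H19, Slc22a18, Igf2r, Zim1, Asb4 and Copg2, and those that were lower were Ascl2, Cdkn1c, Phlda2, Meg3, Rian and Mirg. The difference between the parental classes was not tested, since genes of a cluster are not independent.

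IGF2 acts through the IGF1 and insulin receptors, is cleared by IGF2R and is bound by IGF-binding proteins. Of the 14 other IGF and insulin signalling genes tested, 12 were called higher and 1 lower, beside 37.2% and 35.8% of all genes, with a median fold change of 2.21 on the log2 scale, against 0.03 over all genes. Igfbp5, a secreted IGF-binding protein, had 39.8 and 34.4 CPM in KO-labelled libraries and 0.199 and 0.433 CPM in WT-labelled libraries, a called fold change of 6.92 ± 0.20 (SE). Irs1, an adaptor of both receptors, had 21.6 and 19.9 CPM in KO-labelled libraries and 0.541 and 0.0361 CPM in WT-labelled libraries, a called fold change of 6.02 ± 0.34 (SE). The 2 genes were near absent from WT-labelled libraries and plain in KO-labelled ones. Igf2bp1, an RNA-binding protein of Igf2 transcripts, was the 1 gene called lower, with 296 and 280 CPM in KO-labelled libraries and 522 and 523 CPM in WT-labelled libraries.

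All 18 imprint maintenance and DNA methylation factors tested were called, 7 higher and 11 lower, beside 37.2% and 35.8% of all genes. Zfp57 had 254 and 241 CPM in KO-labelled libraries and 500 and 506 CPM in WT-labelled libraries, a fold change of -1.02 ± 0.03 (SE). Trim28 and Dnmt1 were also lower, at -0.70 ± 0.02 (SE) and -0.55 ± 0.03 (SE). The largest falls of the list were in Tet2, a 5-methylcytosine oxidase, at -2.17 ± 0.05 (SE), and Uhrf1, which brings DNMT1 to replicated DNA, at -1.49 ± 0.03 (SE). Its largest rises were in Dppa3, which protects the maternal genome from demethylation, at 2.12 ± 0.08 (SE), and Tet3 at 1.22 ± 0.15 (SE). Methylation itself was not measured in these files. Of 32 further genes of the same clusters, 21 were tested, with 9 called higher and 9 lower, which lies near the 37.2% and 35.8% of all genes. Atp10a (5.39) and Osbpl5 (3.78) had the largest rises of that list and Ddc (-3.12) and Dio3 (-1.40) the largest falls, on the log2 scale.

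**Figure D3:**
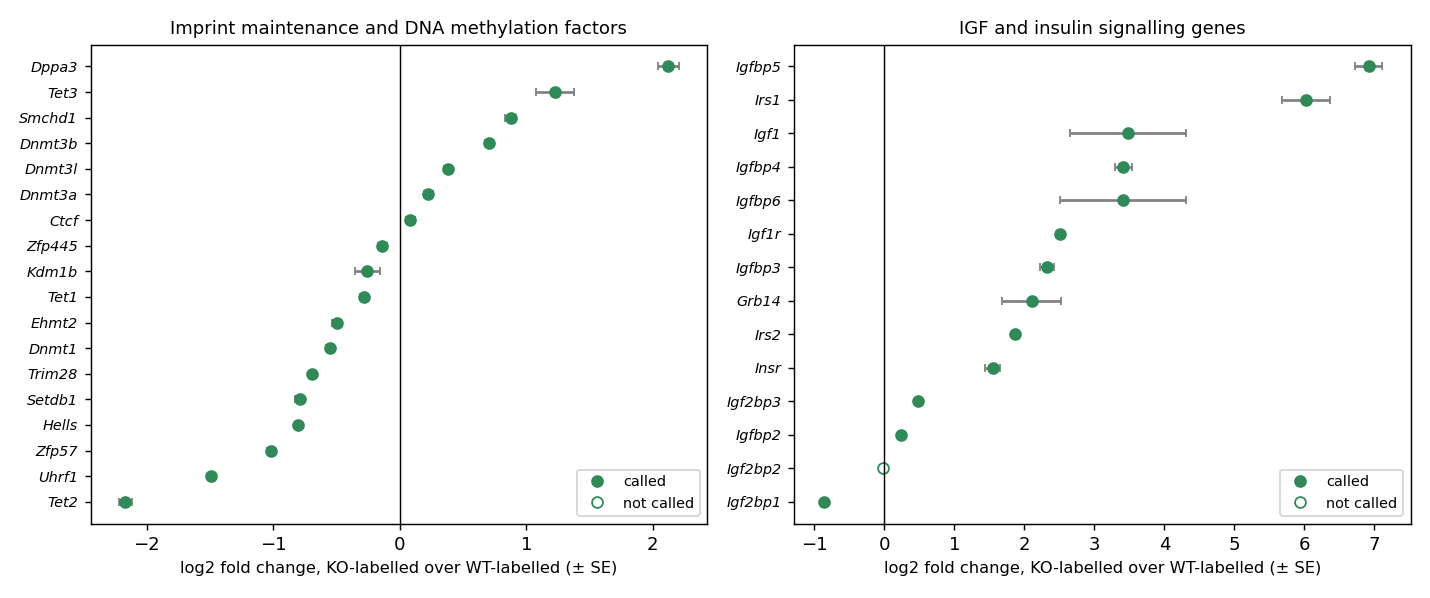
Log2 fold change with standard error, KO-labelled over WT-labelled, of imprint maintenance and DNA methylation factors (left) and of IGF and insulin signalling genes (right); filled points passed the edgeR threshold. The left list runs from -2.17 for Tet2 to 2.12 for Dppa3, and the right one reaches 6.92 for Igfbp5.

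Markers of other cell types also differed between the groups, in directions that varied from list to list. All 10 mesenchymal and matrix markers tested were called higher, with summed levels of 471 and 458 CPM in KO-labelled libraries and 14.5 and 14.9 CPM in WT-labelled libraries, where Bgn, Lum and Dcn were at 0. Acta2 and Col1a2, of smooth muscle and matrix, had the largest rises of that list, at 152 and 147 CPM for Acta2 and 149 and 144 CPM for Col1a2 in KO-labelled libraries, against at most 0.0361 CPM in WT-labelled libraries. Of 9 endoderm markers tested, 7 were called higher, Sox17 and Dab2 by the most, and 1 lower (Lama1). Their summed levels were 66.0 and 68.5 CPM in KO-labelled libraries and 80.3 and 78.6 CPM in WT-labelled libraries. Lama1 alone made up 15.9 and 16.3 CPM of this in KO-labelled libraries and 76.9 and 74.9 CPM in WT-labelled libraries. The WT-labelled sum was thus almost all Lama1. Of the 10 neural progenitor markers tested all were called higher, of the 12 pluripotency markers 1 (Klf2) was higher and 11 lower, of the 7 neuronal markers 5 were higher and 2 lower, and of the 7 trophoblast markers, which include Ascl2, 3 were higher and 4 lower. The counts of these marker lists stand beside 37.2% of all genes called higher and 35.8% called lower. The trophoblast markers called lower numbered 2 with library size alone or without either KO-labelled replicate. H19, Igf2, Peg3 and others of the listed genes are also expressed in mesenchymal and endodermal tissues, and the part of these cells in the values above was not tested.

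Loops of RNA polymerase II HiChIP were kept at the authors' false discovery rate of at most 0.01 and at least 2 tags, which left 57463 loops with 285890 tags in the KO-labelled list and 22148 loops with 175142 tags in the WT-labelled list. Anchors were called in each list separately and covered 173 Mb in the KO-labelled list and 92.5 Mb in the WT-labelled list. With 1 pooled list per label no difference can be tested, and the intervals cover counting error only. A loop belonged to a gene where an anchor overlapped the gene widened by 2500 bases, and genes that overlap or adjoin share loops.

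In the KO-labelled list 99 kept loops touched 21 of the 37 genes, with 359 tags or 0.126% of all kept tags (exact 95% interval 0.113% to 0.139%). In the WT-labelled list 64 kept loops touched 14 of the genes, with 362 tags or 0.207% (0.186% to 0.229%). Of the imprinted-gene loops 6 were shared, 6.06% (2.26% to 12.7%) of those in the KO-labelled list and 9.38% (3.52% to 19.3%) of those in the WT-labelled list. Over all kept loops the shares were 4.83% in the KO-labelled list and 11.8% in the WT-labelled list. Loops that leave the same anchor are not independent, so the intervals cannot decide whether imprinted-gene loops differ from all loops. Among 14 imprinted genes with at least 10 kept tags in either list, a list with no tag being counted as 3 tags, 5 had a tag share that was 2-fold or more higher in the KO-labelled list and 6 one that was 2-fold or more lower. Over all genes with that many tags, 55.9% were higher and 27% lower by this measure. The median ratio of tag shares was 0.780 over the imprinted genes and 2.43 over all such genes.

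**Figure D4:**
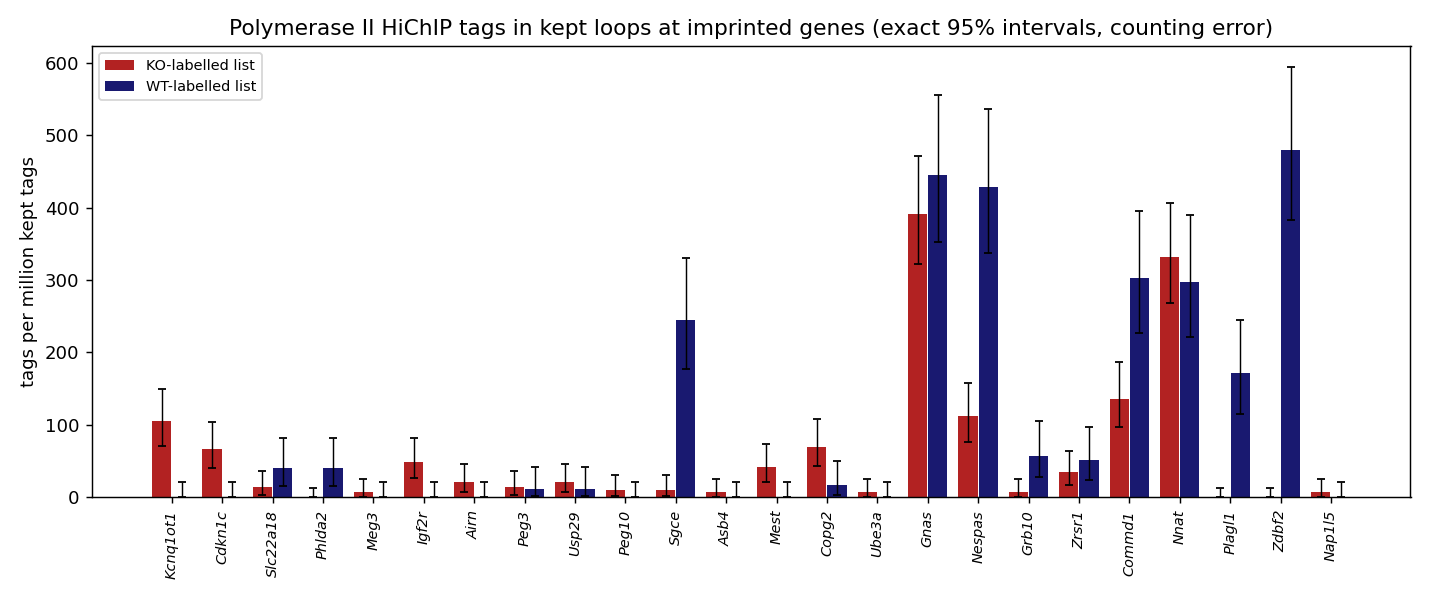
Tags in kept loops at each imprinted gene with at least 1 kept loop, per 1000000 kept tags of its list, with exact 95% intervals for counting error. Gnas and Nnat have bars of like height in both lists, the Sgce, Plagl1 and Zdbf2 bars are tall in the WT-labelled list, and the Kcnq1ot1, Cdkn1c, Igf2r and Mest bars stand in the KO-labelled list alone.

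Gnas had the most tags in the KO-labelled list, 112 in 28 loops, against 78 in 8 loops in the WT-labelled list, or 392 (323 to 471) against 445 (352 to 556) tags per 1000000 kept tags with exact 95% intervals. The intervals overlapped, but the anchors differed. In the KO-labelled list most loops left an anchor inside Gnas (chr2:174325570-174332032), and the loops with the most tags stayed within the gene, with 14 tags over 15.6 kb and 11 tags over 34.1 kb. In the WT-labelled list the loops with the most tags joined the upstream end of the locus (chr2:174283935-174290465) to anchors further upstream, with 32 tags over 15.0 kb and 26 tags over 26.2 kb. That end is shared with Nespas, the antisense transcript of the locus, which had 32 tags in the KO-labelled list and 75 in the WT-labelled list. Nespas was not called in RNA, at 2.42 and 2.34 CPM in KO-labelled libraries and 1.82 and 1.70 CPM in WT-labelled libraries.

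Nnat had 95 tags in 15 loops in the KO-labelled list and 52 tags in 7 loops in the WT-labelled list, or 332 (269 to 406) against 297 (222 to 389) per 1000000. Of the 6 shared loops, 4 were at Nnat. They joined the Nnat and Blcap region to Soga1, Ghrh, Manbal and Src. The anchor over the Nnat promoter sequence printed above carried 2 kept loops, of 10 and 7 tags, to Src and Ghrh in the KO-labelled list, and none in the WT-labelled list. Loops of Nnat cannot be told apart from those of Blcap.

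By ratio of tag shares the lists differed most at Zdbf2. No kept tag was found in the KO-labelled list, where 3 tags stood among all deposited loops, against 84 kept tags in 7 loops in the WT-labelled list, or 480 (383 to 594) per 1000000. The loops with the most tags were short, with 42 tags over 5.64 kb and 21 tags over 5.78 kb. They joined anchors at the start of Zdbf2 and in Gpr1, whose annotation overlaps that of Zdbf2. Loops of Zdbf2 at these anchors cannot be told apart from those of Gpr1. The anchor at chr1:63197401-63203106 covers the printed Zdbf2 window and was used by 3 of these loops. Others reached Nrp2 and the Ndufs1 region. No kept loop of either list had an anchor at the other RefSeq promoter window of Zdbf2 (chr1:63273019-63273318). In RNA, Zdbf2 was higher in the KO-labelled libraries, as given above.

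Plagl1 had no kept tag in the KO-labelled list, where 3 tags stood among all deposited loops, against 30 kept tags in 9 loops in the WT-labelled list, or 171 (116 to 245) per 1000000. These loops left an anchor within the gene (chr10:13105087-13118408) and not the printed promoter, and reached Utrn, Phactr2, Adgrg6 and sites up to 1874 kb away.

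Sgce had 1 kept loop with 3 tags in the KO-labelled list and 13 loops with 43 tags in the WT-labelled list, or 10.5 (2.16 to 30.7) against 246 (178 to 331) per 1000000. In the WT-labelled list, 12 of the loops left the end of Sgce away from Peg10 (chr6:4675586-4687361) and ran across the domain, to Ppp1r9a, Pon3, Pon2, Pdk4 and Slc25a13. The loop of the KO-labelled list left the Sgce and Peg10 promoter region (chr6:4745229-4749610) and joined it to Ppp1r9a over 346 kb. A second loop of that list, with 2 tags, joined the same Ppp1r9a anchor to Asb4. Thus Ppp1r9a was an endpoint in both lists, from different ends of Sgce. Sgce, Peg10, Asb4 and Ppp1r9a were all higher in the KO-labelled RNA libraries.

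**Figure D5:**
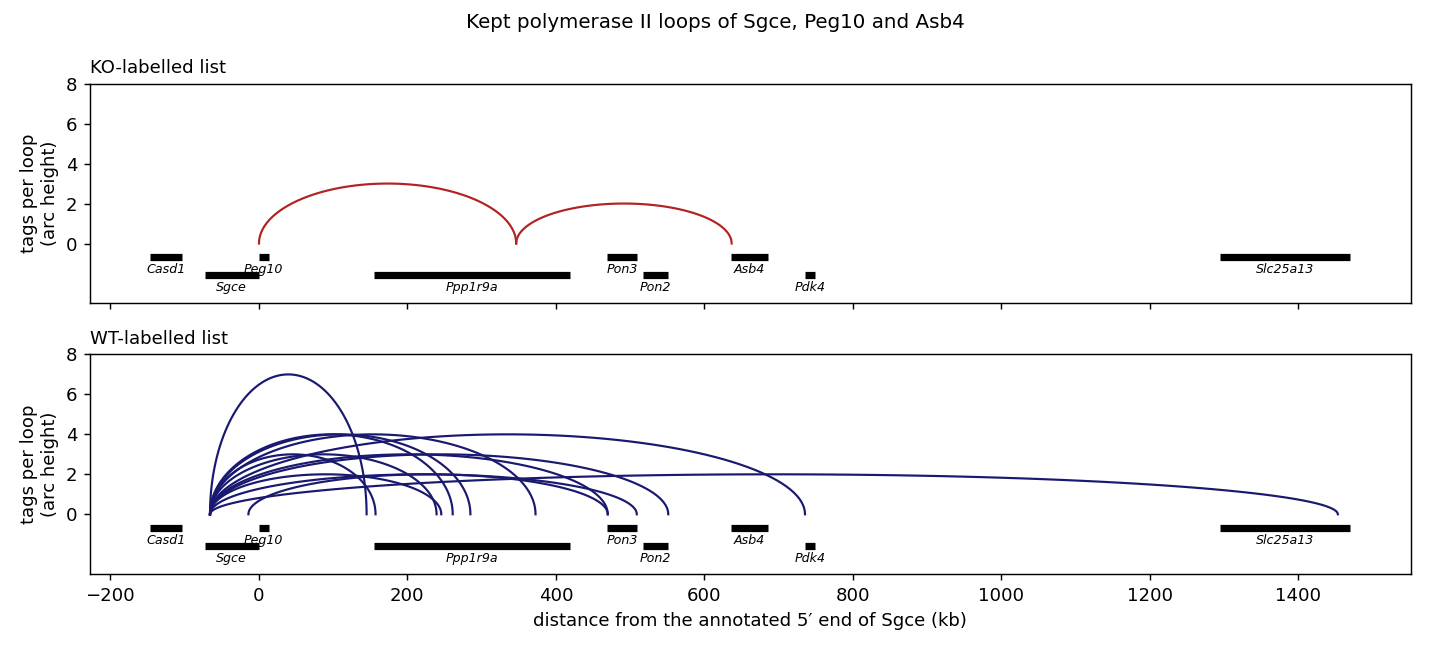
Kept loops of Sgce, Peg10 and Asb4 drawn as arcs between anchor centres, by distance in kb from the annotated 5′ end of Sgce, with arc height giving the tags and black bars the genes; the KO-labelled list is above the WT-labelled one. The KO-labelled list has 1 arc from the Sgce and Peg10 promoters to Ppp1r9a and 1 from Ppp1r9a to Asb4, and the WT-labelled list has 13 arcs from Sgce.

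The Kcnq1 cluster had loops of its noncoding RNA and of Cdkn1c in the KO-labelled list. Kcnq1ot1 had 30 kept tags in 11 loops in that list, or 105 (70.8 to 150) per 1000000, and none in the WT-labelled list, where 11 tags stood among all deposited loops. Cdkn1c had 19 kept tags in 6 loops in the KO-labelled list, or 66.5 (40.0 to 104) per 1000000, and no deposited tag in the WT-labelled list. The loop with the most tags in the cluster, 7 tags over 165 kb, joined the promoter end of Kcnq1ot1 (chr7:143294103-143298069) to Cdkn1c. Phlda2 was the reverse, with no deposited tag in the KO-labelled list and 7 kept tags in 3 loops in the WT-labelled list. Those 3 loops, shared with Slc22a18, left an anchor over the Phlda2 promoter and reached the Cd81 region and Kcnq1.

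The 120 bases before the start of Phlda2 (GRCm38.p6, chr7:143502525-143502644, minus strand), which lie under that anchor, hold 13 CG dinucleotides, shown in capitals, in the gene with the largest fall among imprinted genes at over 5 CPM.
Phlda2: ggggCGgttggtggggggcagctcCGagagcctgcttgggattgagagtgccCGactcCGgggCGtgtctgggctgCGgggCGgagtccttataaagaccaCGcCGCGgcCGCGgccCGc

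Commd1 had 39 tags in the KO-labelled list and 53 in the WT-labelled list, a share of 136 (97.0 to 186) against 303 (227 to 396) per 1000000, and 2 of its loops were shared, including one to Usp34. Zrsr1, inside Commd1, had 10 tags in the KO-labelled list and 9 in the WT-labelled list. Copg2 had 20 tags in the KO-labelled list, in loops to Cpa5, Lncpint and others, and 3 in the WT-labelled list. Mest had 12 and Igf2r 14 kept tags in the KO-labelled list and none in the WT-labelled list. Among all deposited loops of the WT-labelled list, 10 tags stood at Mest and 4 at Igf2r. With the floor of 3 tags, the ratio of tag shares was 2.45 for Mest and 2.86 for Igf2r. The median over all genes with at least 10 kept tags was 2.43. Grb10 had 2 tags in the KO-labelled list and 10 in the WT-labelled list, where its loops reached Cobl. None of these intervals takes account of the spread between the pooled replicates.

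Few or no loops were kept at several genes, both with large RNA changes and with small ones such as Impact, Snrpn and Mkrn3. The share of all genes without a kept loop was not computed, so the lack of loops is not set against a background. H19, Igf2, Ndn, Magel2, Peg12, Zim1, Mirg, Rian, Snrpn, Mkrn3, Impact, Ascl2 and Dlk1 had no kept loop in either list. Peg3 had 4 tags in the KO-labelled list and 2 in the WT-labelled list, and Peg10 had 3 in the KO-labelled list and none in the WT-labelled list. Among all deposited loops, H19 had 20 tags in the KO-labelled list and 0 in the WT-labelled list, and Igf2 had 0 in the KO-labelled list and 2 in the WT-labelled list. None of these loops passed the thresholds.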

How the data were processed

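RNA-seq gene counts of 4 libraries, 2 per genotype, and HiChIP loop lists of 4 samples, pooled into 1 list per genotype, were used of the 26 samples of the series, and the ChIP-seq samples were not analysed here. The counts are whole numbers per gene symbol as the authors deposited them, and the submitters' processing notes name mm10, HISAT2 2.1.0, featureCounts 2.0.3, DESeq2 1.18.1 and HiC-Pro 2.11.1. The sources used here do not name the strand setting or the gene annotation. Rows naming no gene held 22.3% and 22.5% of the column totals in KO-labelled libraries and 20.4% and 21.1% in WT-labelled libraries, and were left out. They include reads marked ambiguous, at 4.19% and 4.24% in KO-labelled libraries and 4.41% and 4.37% in WT-labelled libraries. Whether reads over overlapping genes were set aside there or counted to 1 gene cannot be told without the strand setting. The loop lists give per loop a deposited count of tags and a false discovery rate, used as the authors' q-value.

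Genes were filtered with filterByExpr, scaled by TMM and tested with edgeR 4.0.16 (glmQLFit, robust; glmQLFTest, two-sided) in R 4.3.3, all 4 libraries in 1 fit. The fit was also run on simulated counts with 200 changed genes. Far more genes were called in these data, so that run does not vouch for the calls or the scaling here. The SE is the fold change divided by the root of the F statistic. Intervals are exact at 95% and cover counting error only. Alternatives were other scalings, DESeq2 1.42.0, no filter on low counts, each replicate left out, a replicate block, and other loop thresholds and windows. Deviations of same-numbered replicates correlated at 0.0153 across genes, so the numbers were not treated as pairs.

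Values per library are given for members called with a log2 change of at least 1 and a level of 5 CPM or more in the higher group and for the most abundant member of each cluster. Of each other list the 2 largest called rises and falls are named where the list is described in full, and for loops the members with at least 10 kept tags. Slc22a18, Meg3, Rian, Airn, Mest, Ube3a, Nespas, Nap1l5 and Zfp57, other list genes and the loops of Phlda2 and Peg3 were named after their values were seen. The members and lists were chosen with earlier results of these data known. Overlaps and positions were computed in Python 3.11.15 with pandas 2.3.3 and scipy 1.17.1.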

Additional observations from a re-analysis of the deposited data

How the results depend on the processing

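The counts of called genes moved little. Over the alternatives, 11515 to 12898 genes were called, against 12618 in the analysis reported, and 22 to 27 imprinted genes were called higher and 5 to 7 lower, against 23 and 7. Leaving out each replicate in turn gave 11683 to 12273 genes, 22 to 24 imprinted genes higher and 5 to 7 lower. With the replicate number as a block, 12410 genes, 23 imprinted genes higher and 7 lower were called, and the block changed no call of an imprinted gene. Of the 30 imprinted genes called, 26 kept the call in every RNA alternative run, and Ascl2, Meg3, Igf2r and Grb10 lost it in at least one. With library size alone the median of all genes moved to 0.24 on the log2 scale, and relative to that shift Ube3a, which turned to 0.15 (adjusted p = 0.0189), stayed below the median of all genes.

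The share of tags at imprinted genes depended on how loops and windows were chosen, while its order between the lists was the same in each setting. With all deposited loops it was 0.158% in the KO-labelled list and 0.253% in the WT-labelled list, and with a window of 10000 bases 0.169% and 0.323%. With 2500 bases around either annotated end it was 0.0822% in the KO-labelled list and 0.164% in the WT-labelled list. With at least 3 tags it was 0.112% in the KO-labelled list and 0.202% in the WT-labelled list. These settings differ in which loops they count. The number of libraries, 2 per group, and the low tags per loop limit the precision.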
